A study of Mus musculus with 17 samples.

Results

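Genes for 3 NR4A receptors (Nr4a1, Nr4a2, Nr4a3), the glucocorticoid receptor (Nr3c1), the corepressor Nrip1 and the 3 coactivators of the p160 family (Ncoa1, Ncoa2, Ncoa3) were followed in cultured mouse follicles whose EGF receptor had been inhibited. They were chosen by name, as nuclear receptors and the cofactors that nuclear receptors recruit, with earlier results of these data known. They were 8 of the 25198 genes in the count table. All 8 had enough counts to be among the 9603 genes tested.

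Antral follicles of CD1 mice 16 days old had been grown for 8 days in eIVFG, a culture in which each follicle is encapsulated in a gel. There were 11 Control libraries and 6 libraries from follicles given Tyrphostin-AG1478, a small molecule that inhibits the kinase of the EGF receptor, at 10 µM for 4 h together with hCG, the gonadotropin that starts the ovulatory response. Each library held the RNA of 3 follicles, made into cDNA by Smart-Seq2. Batch 1 held 6 Control and 3 Tyrphostin libraries and batch 2 held 5 Control and 3 Tyrphostin libraries. The labels give 1 treatment text to every sample, so whether Control follicles also received hCG and the DMSO solvent is not stated. The names of the Control libraries divide them into 5 sets, and whether libraries of 1 set, or of 1 group, came from separate animals or cultures is not stated either. The p-values therefore measure the spread between libraries, which may be partly technical.

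Library totals ran from 1820545 to 8291024 counts, and the lowest total belonged to Control 6. The follicles carried high granulosa cell transcripts: the summed level of 10 granulosa markers ran from 62509 to 81268 CPM (counts scaled to a common library size) in Control and from 52732 to 78495 CPM in Tyrphostin libraries, although the granulosa gene Amh never exceeded 4 counts and Foxl2 never exceeded 30. Most of the granulosa sum came from Inha and Inhba, which averaged 44568 and 24329 CPM in Control and 43006 and 23043 CPM in Tyrphostin libraries. Oocyte markers summed to between 19.1 and 92.4 CPM in Control and between 22.5 and 219 CPM in Tyrphostin libraries. Theca and stroma markers summed to between 235 and 2013 CPM in Control and between 240 and 2790 CPM in Tyrphostin libraries, and endothelial and immune markers to between 53.9 and 484 CPM and between 35.7 and 871 CPM. Of the markers tested, 4 of 8 granulosa genes (Nr5a2, Cyp19a1, Hsd17b1 and Fshr) were called higher and 0 of 7 theca and stroma, 0 of 8 oocyte and 0 of 4 endothelial and immune genes were called by edgeR (0, 1 and 1 at an unadjusted p under 0.05). Over all genes tested 4.35% were called higher and 6.25% lower, and 2279 of 9603 were at an unadjusted p under 0.05. The call of Fshr was kept in 11 of 17 fits that left out 1 library (adjusted p = 0.187 without Tyrphostin 1), and the oocyte gene Zp2 was called higher by DESeq2 and without Tyrphostin 4. Within batch 1 alone, 5 of the 7 theca and stroma genes were at an unadjusted p under 0.05, beside 2001 of the 9423 genes tested there. Col1a1 was called lower in that batch (edgeR, log2 fold change -1.20 ± 0.32 SE, adjusted p = 0.027). The part that cell mixture played in the values below was not tested, and in whole follicles fewer cells of a type and less RNA per cell cannot be told apart.

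NR4A receptors are orphan nuclear receptors with no known classical hormone ligand, so their activity follows mainly from how much of each is made. They are immediate-early genes: in granulosa and theca cells gonadotropins raise them quickly through cAMP, protein kinase A and the transcription factor CREB, and in many cells growth factors raise them too. Ligand-bound receptors such as the glucocorticoid receptor recruit p160 coactivators, which bring histone acetyltransferases to target genes, whereas Nrip1 (also called RIP140) competes for the same receptor surface and recruits repressors. Female mice without Nrip1 fail to release oocytes at ovulation.

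The regulatory sequence the 3 NR4A genes share is shown because the cAMP response element is a known route by which hormone signals reach them. Below are the 250 bases before the transcript start of each gene, from RefSeq promoters of the build GRCm38.p6, written 5′ to 3′ on the strand of the gene. Capitals mark the core motif of the cAMP response element, CGTCA, or TGACG where it lies on the other strand. Nr4a1 lies at chr15:101266596-101266845 on the plus strand, Nr4a2 at chr2:57124004-57124253 on the minus strand and Nr4a3 at chr4:48045055-48045304 on the plus strand.
Nr4a1: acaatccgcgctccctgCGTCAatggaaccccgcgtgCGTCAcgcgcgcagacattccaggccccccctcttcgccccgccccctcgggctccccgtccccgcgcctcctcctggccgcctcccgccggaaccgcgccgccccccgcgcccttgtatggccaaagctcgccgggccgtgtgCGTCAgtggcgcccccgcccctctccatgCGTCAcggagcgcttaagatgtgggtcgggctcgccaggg
Nr4a2: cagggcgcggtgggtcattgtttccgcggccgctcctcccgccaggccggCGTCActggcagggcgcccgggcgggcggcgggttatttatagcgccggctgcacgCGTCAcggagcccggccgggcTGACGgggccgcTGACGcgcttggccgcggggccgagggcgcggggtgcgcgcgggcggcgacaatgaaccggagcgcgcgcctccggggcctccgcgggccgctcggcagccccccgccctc
Nr4a3: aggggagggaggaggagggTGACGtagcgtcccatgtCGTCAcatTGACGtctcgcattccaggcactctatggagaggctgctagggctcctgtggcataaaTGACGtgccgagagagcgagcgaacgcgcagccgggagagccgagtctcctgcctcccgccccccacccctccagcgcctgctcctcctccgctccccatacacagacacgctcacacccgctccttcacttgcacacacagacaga

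Each of the 3 NR4A promoters held 4 core motifs. Among all 32851 RefSeq promoter windows of 300 bases (250 before to 50 after the start), 76 held 4 or more, which is 0.231%, and 20.8% held at least 1. These windows are rich in G and C, at 72.3% for Nr4a1, 81.7% for Nr4a2 and 64.7% for Nr4a3 beside a median of 52.7% over all promoters. Of the 9690 windows with at least 60% GC, 54 held 4 or more cores, which is 0.557%. Counting back from -1 as the last base before the start, those of Nr4a1 began at -233, -213, -69 and -40, all on the strand of the gene. Those of Nr4a2 began at -200 and -144 on that strand and at -123 and -111 on the other. In Nr4a3, 1 began at -213 on the strand of the gene and the others at -231, -205 and -147 on the opposite strand.

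**Figure D1:**
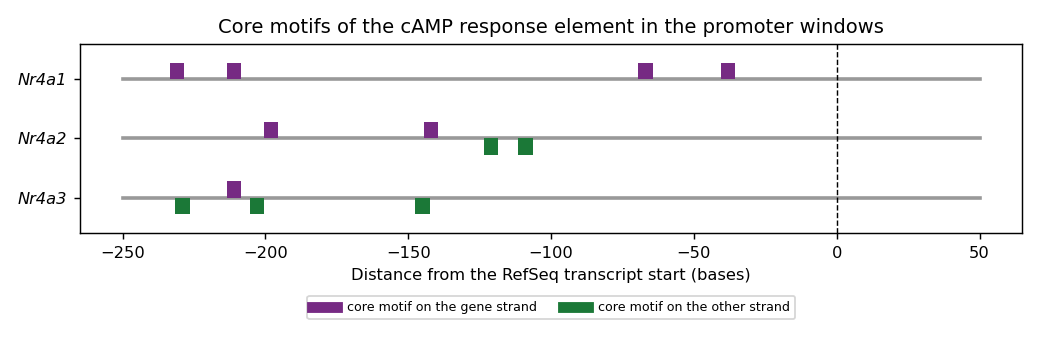
Positions of the core motifs of the cAMP response element in the promoters of the 3 NR4A genes, with the distance from the RefSeq transcript start in bases on the horizontal axis and boxes above or below each line for the strand of the gene or the other strand. Each gene holds 4 boxes, all before the start, with those of Nr4a1 on 1 strand and those of Nr4a2 and Nr4a3 on both.

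Other motifs were absent from these letters. The whole cAMP response element TGACGTCA, which contains the core on each strand, occurs in 1.79% of all promoter windows, the NBRE AAAGGTCA to which NR4A monomers bind in 1.51% and the CArG box of serum response factor in 1.63%, searched on both strands. None of the 3 was found in the windows of Nr4a1, Nr4a2, Nr4a3, Nrip1 or Ncoa1. The core was not found in either of the 2 Nrip1 windows or in the Ncoa1 window. Promoters of Nr3c1, Ncoa2 and Ncoa3 were not used here.

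Of the 8 genes, 2 were called between Tyrphostin and Control, Nr4a1 and Nrip1, and both rose. Calls were made by edgeR's quasi-likelihood test on the 17 libraries together, batch being a term of the model, at an adjusted p (Benjamini-Hochberg over all genes tested) under 0.05. In that comparison 10.6% of all genes tested were called, 4.35% higher and 6.25% lower. With libraries scaled by their totals alone, which moved the median of all genes tested to 0.15 on the log2 scale, the 418 higher and 600 lower calls became 715 and 396, and the same 2 of the 8 genes were called. The median log2 fold change was 0.13 over the 8 genes and 0.00 over all genes tested.

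**Figure D2:**
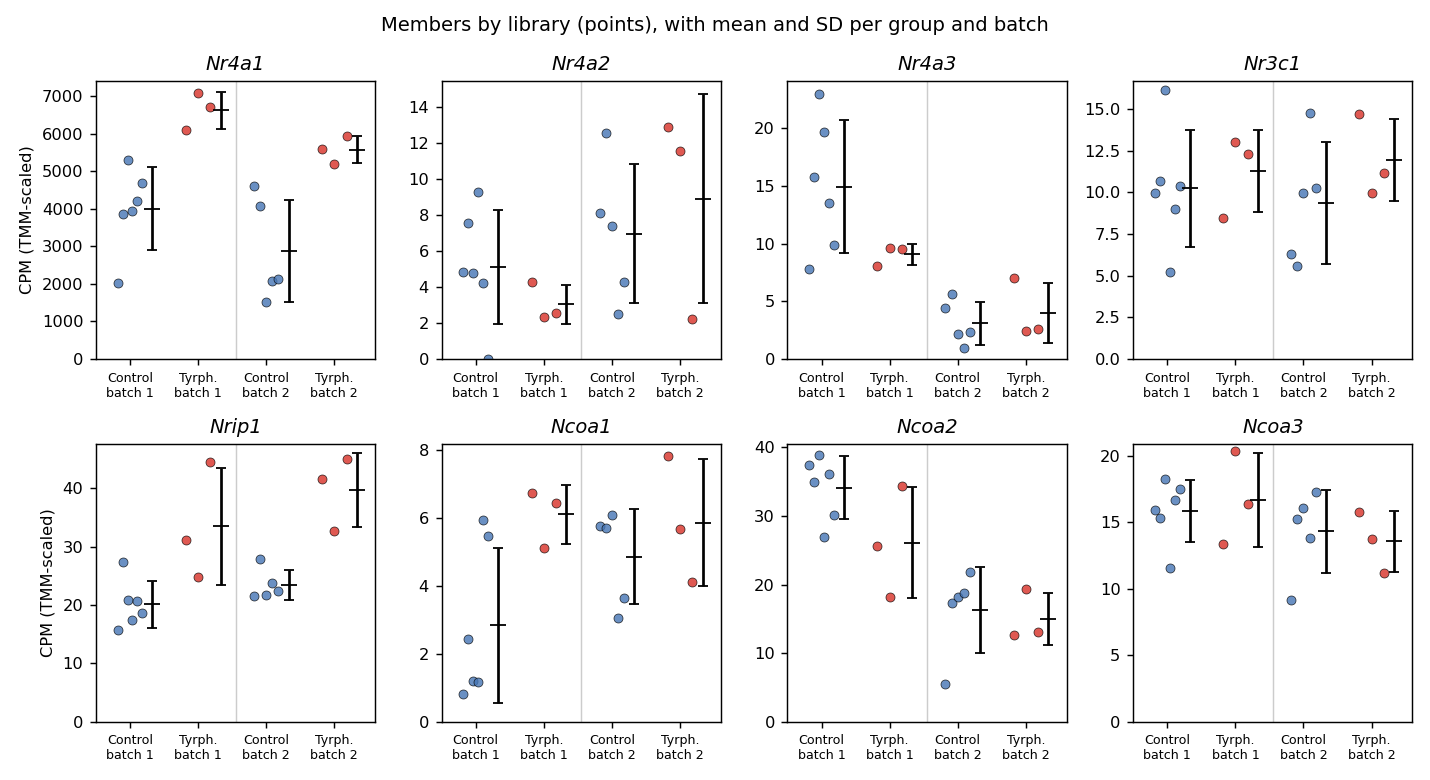
CPM (scaled by TMM) of the 8 genes in each library, with a panel for each gene, points for libraries, and the mean and SD beside each group within its batch. The Tyrphostin points of Nr4a1 lie above all Control points of the same batch in both batches, Nrip1 is raised in both batches with 1 Tyrphostin library of batch 1 below 1 Control library, and Nr4a3 and Ncoa2 are lower on average in batch 2 than in batch 1 in both groups.

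Nr4a1 (also called Nur77), a receptor that gonadotropins raise in ovarian cells, was by far the most abundant of the 8 and rose further with the EGF receptor inhibited. In Control libraries its level ran from 1521 to 5302 CPM with a median of 3944. In Tyrphostin libraries it was 6093, 7080 and 6703 CPM in batch 1 and 5605, 5197 and 5934 CPM in batch 2. Every Tyrphostin library was above every Control library of its own batch in both batches, a pattern seen in 1.12% of all genes tested. Across batches the groups overlapped by a single pair, since Control 3 at 5302 CPM exceeded Tyrphostin 5 at 5197 CPM.

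Nr4a1 averaged 3493 ± 1306 CPM (SD, n = 11) without and 6102 ± 694 CPM (SD, n = 6) with Tyrphostin. This rise of 1.79-fold was 0.84 ± 0.22 on the log2 scale (SE; edgeR, adjusted p = 0.0159). The exact two-sided permutation test within batches, over 4704 arrangements of the labels and with a smallest possible p of 0.000213, gave p = 0.00319 before any adjustment for the 8 genes tested that way. The adjusted p from edgeR was 0.0519 with no batch term and 0.0893 over only the 12 libraries numbered 1 to 6 in both groups.

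Within batch 1 the log2 fold change of Nr4a1 was 0.73 ± 0.26 (SE; edgeR, adjusted p = 0.108) and within batch 2 it was 0.96 ± 0.36 (SE; edgeR, adjusted p = 0.324), so neither batch alone passed the test. Of the 8 genes, 0 were called by edgeR within a batch, where 6.73% of all genes tested were called in batch 1 and 0.621% in batch 2. At an unadjusted p under 0.05 edgeR gave 4 of the 8 in batch 1 (Nr4a1, Nr4a3, Nrip1 and Ncoa1) and 2 in batch 2 (Nr4a1 and Nrip1). Over all genes tested it gave 2001 of 9423 in batch 1 and 1047 of 9830 in batch 2. DESeq2 called 0 of the 8 in batch 1 and 1, Nrip1, in batch 2. In batch 1 edgeR called 2 of the 8, Nr4a1 and Nrip1, with scaling by library totals and 1, Nr4a1, with no filter on low counts. Over all genes these 3 alternatives called between 723 and 924 in batch 1, and DESeq2 called 303 in batch 2. The Control libraries of batch 2 were not alike in Nr4a1. The pair of set 4 held 4605 and 4068 CPM, whereas set 5 held 1521 CPM and set 6 held 2071 and 2129 CPM. In batch 1, Control 1 was the low library at 2027 CPM and the other 5 lay between 3855 and 5302 CPM. Tyrphostin libraries spread less around their mean, with a coefficient of variation of 11.4% beside 37.4% in Control, a difference that was not tested.

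Nr4a2 (Nurr1), known best for its role in dopamine neurons, was a low transcript that varied between libraries more than between groups. In Control libraries it ran from 0 to 12.5 CPM with a median of 4.85 CPM. Control 6 had no count, which in that library allows a level of up to 1.64 CPM (3 counts, counting error only). Tyrphostin libraries held 4.30, 2.33 and 2.54 CPM in batch 1 and 12.9, 11.6 and 2.24 CPM in batch 2. The groups overlapped almost wholly: the highest library was Tyrphostin 4, and Tyrphostin 6 of the same batch was among the lowest. Its log2 fold change was -0.18 ± 0.44 (SE; edgeR, adjusted p = 0.86), with a 95% interval from -1.04 to 0.68 that holds both a rise and a fall.

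Nr4a3 (Nor1), an immediate-early gene like the other two, was low and differed with batch. In the Control libraries it ran from 7.82 to 23.0 CPM in batch 1 and from 0.958 to 5.60 CPM in batch 2. Tyrphostin libraries held 8.03, 9.63 and 9.56 CPM in batch 1 and 7.00, 2.43 and 2.61 CPM in batch 2. In batch 1 the Tyrphostin libraries lay at the low end of the Control range without leaving it, and in batch 2 Tyrphostin 4 lay above every Control library. Over all libraries the log2 fold change was -0.25 ± 0.33 (SE; edgeR, adjusted p = 0.713). With 1 library left out it ran from -0.60 (without Tyrphostin 4) to -0.13 (without Tyrphostin 1). It was -0.72 ± 0.32 within batch 1 (SE; edgeR, adjusted p = 0.202) and 0.36 ± 0.56 within batch 2 (SE; edgeR, adjusted p = 0.894).

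The difference of the treatment effect between batches was not called for any of the 8 genes, nor for any of the 9603 tested (0% by edgeR, with 342 genes and none of the 8 at an unadjusted p under 0.05, and 0 genes by DESeq2). Nr4a3 had the lowest p of the 8 in that test, 0.0946 unadjusted and 1.00 adjusted over all genes in edgeR. The difference was 1.09 ± 0.62 on the log2 scale (SE, batch 2 minus batch 1), and 0.40 without Tyrphostin 4.

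The batch itself was then read from its term in the fit over all 17 libraries, which called 21.2% of all genes and 2 of the 8, Nr4a3 and Ncoa2, both lower in batch 2. Nr4a3 was lower by a log2 difference of -1.80 ± 0.32 (SE; edgeR, adjusted p = 0.000415), the greater of the 2. The labels do not say what a batch is, whether a culture, an extraction or a sequencing run.

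A rise of Nr4a1 that passed the test beside relatives that did not pass it does not show that they differ, so the ratio of 2 transcripts within a library was compared directly, for 5 pairs chosen after the values were seen. The log2 ratio of Nr4a1 to Nr4a3 was 8.81 ± 0.98 (SD, n = 11) without and 9.94 ± 0.73 (SD, n = 6) with Tyrphostin. Averaged over batches it was higher by 1.06 with Tyrphostin (two-sided exact permutation within batches, p = 0.0017, adjusted p = 0.00585 over the 5 ratios), by 1.39 in batch 1 and by 0.72 in batch 2. The log2 ratio of Nr4a1 to Nr4a2 was higher by 0.96, which was within the spread of the libraries (exact permutation test, p = 0.159, adjusted p = 0.199). The ratio of Nr4a1 to Nr4a3 was thus higher with Tyrphostin in these libraries, while for Nr4a2 an unequal change could not be told from the spread. Each ratio has 1 of the 2 called genes above the line, and the adjustment over 5 ratios does not cover that choice. The p-values of the ratios are therefore descriptive.

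Variation from library to library was also compared with the batch and treatment means removed. Pearson's r of log2 CPM over the 17 libraries was then 0.67 between Nr4a1 and Nr4a3 and 0.54 between Nr4a2 and Nr4a3, but 0.01 between Nr4a1 and Nr4a2. The points share libraries, depth and scaling, and these correlations are descriptions. Among 6332 genes of at least moderate level (average log2 CPM of 3 or more), those most like Nr4a1 with means removed were Cat (r = 0.82), Fos (r = 0.81) and D6Ertd527e (r = 0.80), and those most like Nr4a3 were Tmem26, Pim1 and Junb (r of 0.78, 0.78 and 0.77). Fos and Junb are subunits of AP-1 and, like the NR4A genes, immediate-early genes. With the means left in, the genes most like Nr4a1 were Zbtb40 (r = 0.84, Spearman's rho = 0.90), Foxo3 (r = 0.83, rho = 0.88) and Trak2 (r = 0.81, rho = 0.90).

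Nr3c1, the glucocorticoid receptor, mediates the cortisol and corticosterone signals that are known to rise in follicles around ovulation. Its level ran from 5.22 to 16.1 CPM in Control libraries with a median of 9.99. In Tyrphostin libraries it was 8.46, 13.1 and 12.3 CPM in batch 1 and 14.7, 9.97 and 11.2 CPM in batch 2. All 6 Tyrphostin values fell inside the Control range, whose ends were Control 4 and Control 3, both of batch 1. The log2 fold change was 0.25 ± 0.23 (SE; edgeR, adjusted p = 0.568), with a 95% interval from -0.20 to 0.70.

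Nrip1 rose in both batches. In Control libraries it ran from 15.6 to 27.8 CPM with a median of 21.5 CPM. Tyrphostin libraries held 31.1, 24.7 and 44.5 CPM in batch 1 and 41.6, 32.6 and 44.9 CPM in batch 2. Of the 6 Tyrphostin libraries 5 were above every Control library, and the share of all genes with this pattern was not counted. The exception, Tyrphostin 2, lay below the 2 highest Control libraries, Control 2 at 27.4 CPM and Control 8 at 27.8 CPM.

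Nrip1 averaged 21.6 ± 3.75 CPM (SD, n = 11) without and 36.6 ± 8.29 CPM (SD, n = 6) with Tyrphostin. This rise of 1.67-fold was 0.74 ± 0.15 on the log2 scale (SE; edgeR, adjusted p = 0.00232), and the exact permutation test within batches gave an unadjusted p of 0.000425. Over only the 12 libraries numbered 1 to 6 in both groups the adjusted p from edgeR was 0.0664. With each number as a block in that model it was 0.198, so the call was lost in both. The estimate was nearly the same in the separate fits, 0.74 ± 0.24 in batch 1 (SE; edgeR, adjusted p = 0.0794) and 0.76 ± 0.21 in batch 2 (SE; edgeR, adjusted p = 0.142). Their difference was 0.03 ± 0.32 (SE, log2 scale), with a 95% interval from -0.60 to 0.66. The counts behind these values were modest, from 34 in Control 6 to 303 in Tyrphostin 4.

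Over all 17 libraries the genes most like Nrip1 in log2 CPM were Cyp19a1 (r = 0.88, rho = 0.90), Coasy (r = 0.86, rho = 0.90) and Jun (r = 0.85, rho = 0.78). Cyp19a1 encodes aromatase, which makes estradiol in granulosa cells before ovulation, Coasy makes coenzyme A and Jun is a partner of Fos in AP-1. With the batch and treatment means removed the most alike were Hnrnpl, Snhg6 and D11Wsu47e (r of 0.81, 0.79 and 0.79), and none of the former 3 remained among them.

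**Figure D3:**
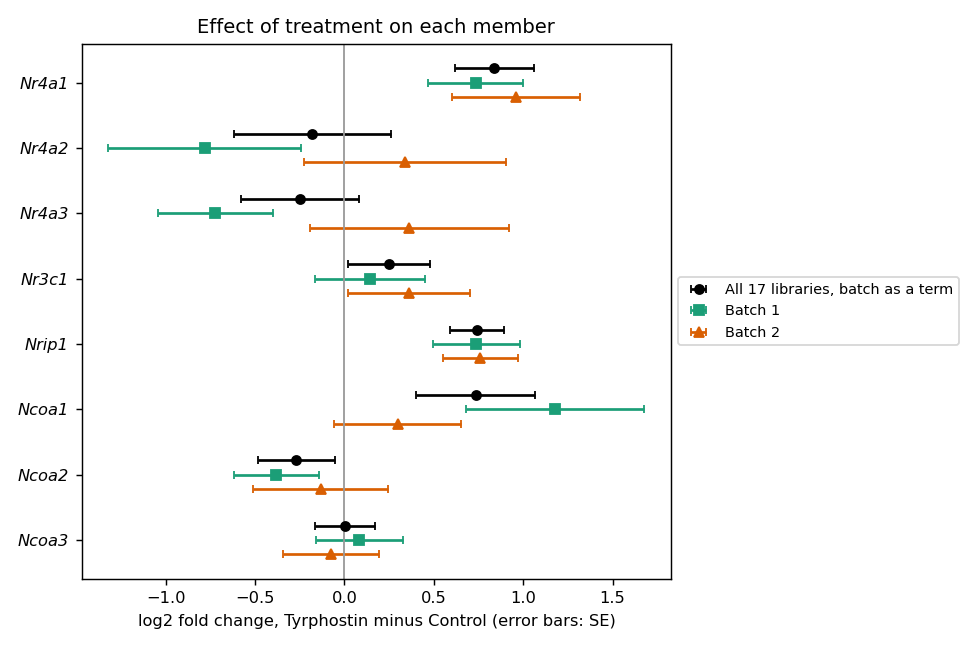
Log2 fold change of each of the 8 genes, Tyrphostin minus Control, on the horizontal axis with its SE, from all 17 libraries (circles), batch 1 alone (squares) and batch 2 alone (triangles). The 3 estimates of Nr4a1 and of Nrip1 lie to the right of 0, those of Nr4a2 and Nr4a3 lie on both sides of it, and those of Ncoa3 lie close to it.

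The p160 coactivators did not pass the test. Their log2 fold changes ran from -0.27 for Ncoa2 to 0.73 for Ncoa1, and a difference among the 3 was not tested. Ncoa1 (SRC-1), the first of the family to be described, had the highest estimate and the lowest counts. In Control libraries it ran from 0.809 to 6.08 CPM with a median of 3.63 CPM, which is 3 to 51 counts. In Tyrphostin libraries it was 6.74, 5.13 and 6.44 CPM in batch 1 and 7.82, 5.66 and 4.10 CPM in batch 2. In batch 1, 4 Control libraries were low, at 0.809 to 2.45 CPM, whereas Control 5 and Control 6 held 5.93 and 5.47 CPM, inside the Tyrphostin range. The log2 fold change was 0.73 ± 0.33 (SE; edgeR, unadjusted p = 0.0373, adjusted p = 0.177), 1.18 ± 0.50 in batch 1 and 0.30 ± 0.35 in batch 2.

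Ncoa2 (SRC-2, also TIF2 or GRIP1) differed between batches and was not called between groups. In Control libraries it ran from 27.0 to 38.9 CPM in batch 1 and from 5.51 to 21.8 CPM in batch 2. Tyrphostin libraries held 25.7, 18.2 and 34.3 CPM in batch 1 and 12.6, 19.4 and 13.1 CPM in batch 2. With Tyrphostin the log2 fold change was -0.27 ± 0.21 (SE; edgeR, adjusted p = 0.493), with a 95% interval from -0.69 to 0.15. It was -0.38 ± 0.24 within batch 1 (SE; edgeR, adjusted p = 0.393) and -0.13 ± 0.38 within batch 2 (SE; edgeR, adjusted p = 0.942).

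Among the Control libraries alone Ncoa2 was lower in batch 2 by a log2 difference of -1.02 ± 0.27 (SE; edgeR, adjusted p = 0.0212), beside 14% of the 6680 genes tested there. It was the only one of the 5 genes tested there to be called, and Nr4a2, Nr4a3 and Ncoa1 had too few counts to enter. The difference was -0.80 without Control 7, the lowest library. With the Control libraries summed by set the adjusted p was 0.116, and with scaling by library totals it was 0.0616, both by edgeR. The batch term over all 17 libraries gave -0.97 ± 0.21 (SE; edgeR, adjusted p = 0.00184).

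Ncoa3 (SRC-3, also AIB1) had nearly the same mean in both groups. It was 15.2 ± 2.71 CPM (SD, n = 11; range 9.19 to 18.2, median 15.9) in Control libraries. In Tyrphostin libraries it was 13.3, 20.4 and 16.4 CPM in batch 1 and 15.8, 13.7 and 11.2 CPM in batch 2, a mean of 15.1 ± 3.16 CPM (SD, n = 6). The log2 fold change was 0.00 ± 0.17 (SE; edgeR, adjusted p = 0.991), with a 95% interval from -0.33 to 0.34.

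The balance of corepressor to coactivator was compared within libraries in the same family of 5 ratios. The log2 ratio of Nrip1 to Ncoa2 was higher by 0.94 with Tyrphostin (two-sided exact permutation within batches, p = 0.00489, adjusted p = 0.00815), and that of Nrip1 to Ncoa3 by 0.72 (exact permutation test, p = 0.00234, adjusted p = 0.00585). The ratio of Nrip1 to Ncoa1 differed by -0.05 (exact permutation test, p = 0.889), by -0.59 in batch 1 and by 0.49 in batch 2. Nrip1 transcripts were thus higher relative to Ncoa2 and Ncoa3 in these libraries, and no such difference was detectable for Ncoa1. These pairs too were chosen after the values were seen, which the adjustment does not cover.

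Levels of different genes were compared per kilobase of merged exon in GENCODE M21 (GRCm38). In Control libraries Nr4a1 stood at 996 ± 372 CPM per kb (SD, n = 11) and ranked 51 among 9568 genes. The other 7 were far lower: Ncoa3 at 1.92 ± 0.343, Nrip1 at 1.89 ± 0.327, Ncoa2 at 1.66 ± 0.677, Nr4a3 at 1.60 ± 1.25, Nr4a2 at 1.47 ± 0.853, Nr3c1 at 1.28 ± 0.446 and Ncoa1 at 0.438 ± 0.248 CPM per kb (SD, n = 11). From Ncoa3 down to Nr3c1 each neighbour in this order differed from the next by less than its SD, and Nr4a1 at the top stood clear. Ncoa1 had the lowest mean, but the SD of Nr4a3 reached below that mean and Nr4a2 had no count in Control 6.

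In Tyrphostin libraries Nr4a1 stood at 1739 ± 198 CPM per kb (SD, n = 6) and ranked 18. Nrip1, at 3.19 ± 0.724 CPM per kb, moved from rank 5815 to rank 4444 and was now the second of the 8. Exons of Ncoa3 share 1.95% of their length with Sulf2 and those of Ncoa1 share 0.793% with 4921501I09Rik, each on the opposite strand, and whether counting used strand is not given in the sources used here.

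Genes that act with these receptors were read from lists drawn up from general knowledge, with earlier results of these data known. Among 45 other nuclear receptors 24 were tested, of which 2 were called higher, 2 lower and 20 were not called. Over all genes tested 4.35% were called higher and 6.25% lower. The median log2 fold change of the 24 was -0.09 and became 0.06 with scaling by library totals. Rara was called lower as well by DESeq2 and without Control 10. Nr5a2 (LRH-1), a granulosa receptor needed for ovulation, rose by 2.18 ± 0.16 on the log2 scale (SE; edgeR, adjusted p = 8.38e-09), with a mean of 44.7 ± 9.79 CPM in the 11 Control and 202 ± 36.3 CPM in the 6 Tyrphostin libraries (± SD). Nr1d2, a repressor of the circadian clock, rose by 0.57 ± 0.17 (SE; edgeR, adjusted p = 0.0303), a call kept in 11 of the 17 fits that each left out 1 library and lost, for example, without Tyrphostin 1 (adjusted p = 0.0798). Pgr, the progesterone receptor that ovulation requires, fell, at -1.17 ± 0.30 on the log2 scale (SE; edgeR, adjusted p = 0.0141), and Pparg, a receptor of fatty acid ligands that Pgr is known to control, fell too, at -1.81 ± 0.22 (SE; edgeR, adjusted p = 8.36e-06). Esr2, the estrogen receptor of granulosa cells, was not called at 0.71 ± 0.29 (SE; edgeR, adjusted p = 0.128).

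Among 28 other coactivators and corepressors 26 were tested, of which 0 were called higher and 3 lower, beside 4.35% and 6.25% of all genes tested. Their median of -0.13 became 0.02 with scaling by library totals. Ncoa7, which is named as a nuclear receptor coactivator but is not a p160 protein, fell, at -2.01 ± 0.26 on the log2 scale (SE; edgeR, adjusted p = 1.82e-05), with means of 717 ± 478 CPM in Control and 172 ± 115 CPM in Tyrphostin libraries (± SD). Kdm1a, a histone demethylase, fell as well, at -1.20 ± 0.25 (SE; edgeR, adjusted p = 0.00247). Pprc1, a relative of PGC-1, stood at -0.58 ± 0.17 (SE; edgeR, adjusted p = 0.0324) and was called in 11 of 17 fits that left out 1 library, but not without Tyrphostin 1 (adjusted p = 0.0968). The acetyltransferases that p160 proteins recruit were not called, with Crebbp at -0.07 ± 0.15 and Ep300 at -0.39 ± 0.18 (SE; edgeR, adjusted p = 0.826 and 0.19).

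The surroundings of the glucocorticoid receptor were mixed. Of its chaperones and the enzymes that make or remove active glucocorticoid, 10 of 11 were tested and 0 were called by edgeR or DESeq2. Over all genes tested edgeR called 10.6%, and 2279 of 9603 were at an unadjusted p under 0.05. The median of the 10 was -0.06 and became 0.09 with scaling by library totals. The 3 at an unadjusted p under 0.05 were H6pd at -0.72 ± 0.26, Fkbp4 at -0.68 ± 0.27 and Fkbp5 at -0.57 ± 0.24 (SE; edgeR, adjusted p = 0.0864, 0.116 and 0.14). With 1 library left out, H6pd was called lower without Tyrphostin 5 and Fkbp4 without Tyrphostin 6. Of 17 genes that glucocorticoids are known to raise, 15 were tested. Of these 0 were called higher and 4 lower, beside 4.35% and 6.25% of all genes tested, and their median was -0.30. That median was -0.16 with scaling by library totals, and with 1 library left out it ran from -0.54 (without Tyrphostin 1) to -0.03 (without Control 11). Within batch 1, 1 was called higher and 2 lower, beside 2.94% and 3.79% of all genes tested there. The 4 called lower over all 17 libraries were Errfi1, a feedback inhibitor of the EGF receptor, at -2.59 ± 0.31, the clock gene Per1 at -1.29 ± 0.23, glutamine synthetase Glul at -0.93 ± 0.26 and metallothionein Mt2 at -1.51 ± 0.43 (SE; edgeR, adjusted p = 7.31e-06, 0.000542, 0.0234 and 0.0303). Without 1 library the count of lower calls ran from 2 to 4, since Glul was called in 14 and Mt2 in 11 of 17 such fits. Of the 11 that were not called, the 3 with an average log2 CPM of at least 6 had estimates of both signs, with Sgk1 at 0.60 ± 0.33, Nfkbia at 0.39 ± 0.21 and Mt1 at -0.70 ± 0.40 (SE; edgeR, adjusted p = 0.295, 0.277 and 0.309).

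Genes put forward as NR4A targets in one tissue or another, a list of mixed certainty, went both ways. Of 17, 9 were tested, 2 were called higher and 4 lower, beside 4.35% and 6.25% of all genes tested. The median was 0.26. With scaling by library totals the median was 0.38 and 3 were called lower, Akr1c18 being lost, and with 1 library left out the median ran from 0.09 (without Tyrphostin 6) to 0.27 (without Tyrphostin 2). Hsd3b1, a steroid dehydrogenase on the way to progesterone, rose by 0.74 ± 0.18 on the log2 scale (SE; edgeR, adjusted p = 0.00821), with means of 9717 ± 2046 CPM in Control and 16186 ± 3960 CPM in Tyrphostin libraries (± SD). Prlr, the prolactin receptor, rose by 1.73 ± 0.19 (SE; edgeR, adjusted p = 3.66e-06). Star, which carries cholesterol into mitochondria for steroid synthesis, fell, at -0.99 ± 0.26 on the log2 scale (SE; edgeR, adjusted p = 0.0143), with means of 11388 ± 3795 CPM and 5815 ± 2479 CPM (± SD). The transcription factors Runx1 and Runx2 fell, at -1.54 ± 0.25 and -2.17 ± 0.32 (SE; edgeR, adjusted p = 0.000228 and 9.87e-05). Akr1c18, which inactivates progesterone, was lower at -2.27 ± 0.69 (SE; edgeR, adjusted p = 0.0421) at a low level, and was called in 7 of 17 fits without 1 library (adjusted p = 0.106 without Tyrphostin 4).

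Genes described as lower in ovaries that lack Nrip1 were read beside Nrip1 itself. All 7 were tested, 6 were called lower and 0 higher, beside 6.25% and 4.35% of all genes tested. The median was -2.24, while Nrip1 was called higher. Ptgs2, the prostaglandin synthase of ovulation, fell, at -2.40 ± 0.24 on the log2 scale (SE; edgeR, adjusted p = 5.33e-07), with means of 7362 ± 4256 CPM and 1306 ± 832 CPM (± SD). Ptx3, Has2 and Tnfaip6, which build the cumulus matrix, fell, at -3.23 ± 0.43, -2.31 ± 0.30 and -2.24 ± 0.24 (SE; edgeR, adjusted p = 5.83e-05, 1.99e-05 and 1.46e-06). Of the EGF-like ligands, Btc stood at -1.14 ± 0.23 (SE; edgeR, adjusted p = 0.00173), Areg at -1.28 ± 0.40 (SE; edgeR, adjusted p = 0.0493) and Ereg was not called at -0.21 ± 0.25 (SE; edgeR, adjusted p = 0.672). The call of Areg was kept in 4 of 17 fits without 1 library (adjusted p = 0.126 without Tyrphostin 2). These genes are also known as part of the ovulatory program that the EGF receptor drives, so the list is not specific to Nrip1. The list was also drawn up with earlier results of these data known, so its share of calls is a description only.

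**Figure D4:**
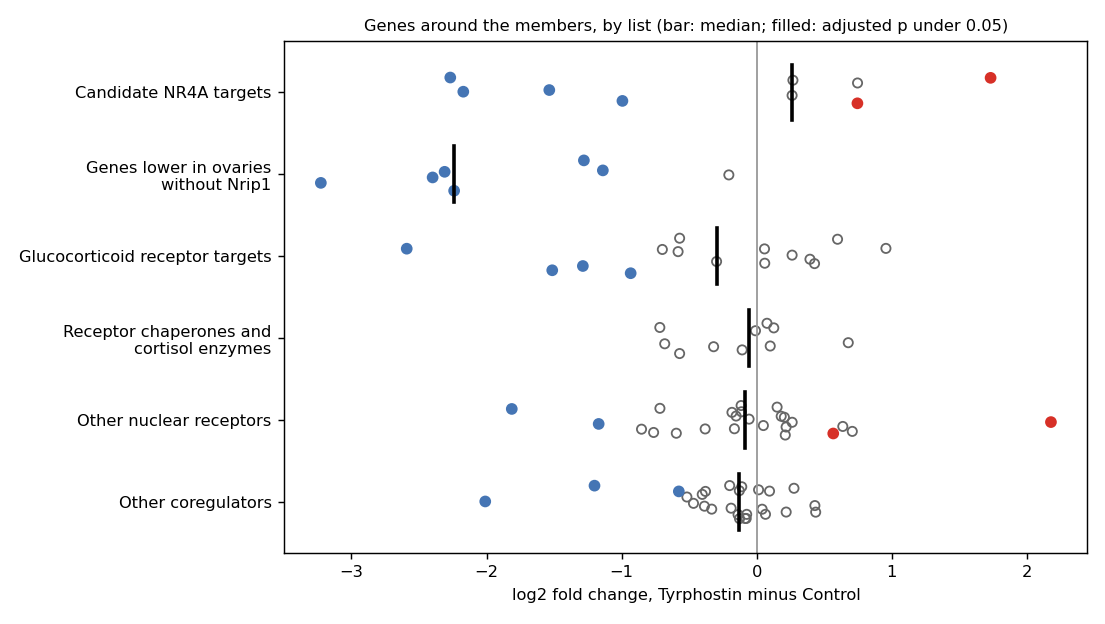
Log2 fold change (Tyrphostin minus Control, horizontal axis) of each tested gene in 6 lists around the 8 genes, with filled points at an adjusted p under 0.05, open points otherwise and a bar at each list's median. The 7 genes described as lower in ovaries without Nrip1 all lie left of 0, 6 of them called, while called genes lie on both sides of 0 in the lists of NR4A targets and other nuclear receptors, only to the left among glucocorticoid receptor targets and other coregulators, and nowhere among the chaperones and enzymes.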

How the data were processed

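For each of the 17 libraries the authors deposited raw counts by gene symbol, as whole numbers; reads were processed with STAR and HTSeq on GRCm38, per the submitters' processing notes, with versions, annotation and strand setting not given in the sources used here. Smart-Seq2 adds no molecular identifiers, so floors and intervals cover counting error only. Columns were matched to samples by the library names in the labels.

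The test was edgeR 4.0.16 under R 4.3.3 (low counts removed by filterByExpr on treatment, TMM, estimateDisp, robust glmQLFit, quasi-likelihood F test, Benjamini-Hochberg adjustment over all genes tested, threshold 0.05), with batch as a term, within each batch, as an interaction, and between batches of Control libraries. The SE is the log2 fold change divided by the square root of F. CPM use TMM-scaled library sizes, and log2 CPM a prior count of 2. Exact permutation tests exchanged labels within batches. Library totals gave 3 counts as between 0.336 and 1.64 CPM. The code was tested on simulated data. Alternatives were other scalings, filters, tools (DESeq2 1.42.0, limma 3.58.1), covariates, Control libraries summed by set, a replicate block, and omission of each library. The batch term over all libraries, the 12 libraries of the block without it, the ratios, the lists under other scalings or without 1 library, and the half-site share at high GC were chosen after seeing the data.

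All 8 members are named. Genes of the other lists could be named where the adjusted p was under 0.05 or the average log2 CPM was at least 6, up to 8 a list by lowest p. Esr2, Rara, Crebbp, Ep300, H6pd, Fkbp5, Zp2, Col1a1, Amh and Foxl2 were named outside this rule, after their values were seen. The 3 genes most like a member were those of highest Pearson correlation. The members and lists were chosen with earlier results of these data known. Promoters came from RefSeq (GRCm38.p6), in which 5 members were used, and exon lengths from GENCODE M21 for 9568 of 9603 genes.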

Additional observations from a re-analysis of the deposited data

Results flagged for a closer look

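Among 24 searches for a library that stands apart (8 genes in each group of 4 or more libraries of 1 batch, or of the 6 Tyrphostin libraries), where chance gives about 1.2, a single value was far from the others. Ncoa2 in Control 7 was 5.51 CPM, from 21 counts, while the other 4 Control libraries of batch 2 held 17.3 to 21.8 CPM. Control 7 was also the lowest library of its group for Ncoa3, at 9.19 CPM, and the highest for Nr4a1, at 4605 CPM. Without it the difference of Ncoa2 between Control batches was -0.80 in place of -1.02.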

How the results depend on the processing

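With 1 library left out, 2 members were called in each of the 17 fits, Nr4a1 with an adjusted p of at most 0.0385 and Nrip1 of at most 0.0135 (edgeR), while the number of genes called ran from 708 to 1314 (1018 with all libraries). Over 14 alternatives Nr4a1 and Nrip1 were each called in 12. With no batch term 619 genes and 1 member were called (Nr4a1 adjusted p = 0.0519), and with the log10 of the library total as a covariate 678 genes. With the replicate block over the 12 libraries numbered 1 to 6 in both groups, 624 genes and 1 member were called (Nr4a1 adjusted p = 0.0431, Nrip1 adjusted p = 0.198) and Nr3c1 turned to -0.11. The same 12 libraries without the block gave 601 genes and 0 members (Nr4a1 adjusted p = 0.0893, Nrip1 adjusted p = 0.0664). These numbers count the libraries of a group and are not the set numbers in the names of the Control libraries. They were not taken to pair samples, since numbers 4 to 6 cross batches. Same-numbered deviations correlated at only 0.03 to 0.29. However, 8 of 12 libraries correlated best with their own number, which goes the other way, so whether the numbers pair samples was not settled. Whether a Control set pairs with the Tyrphostin library of the same number was not tested. Within batch 1, total-count scaling called 2 members and no filter 1, and left-out libraries gave 394 to 687 genes (634 with all; 394 without Tyrphostin 2). Within batch 2, 61 genes became 222 with no filter and 303 with DESeq2, which called 1 member, and 11 (without Tyrphostin 6) to 221 (without Control 7) with a library left out. No filter gave 79 genes for the difference between batches. Between Control batches, 937 genes became 100 with sets summed, 2039 with the batch term over all libraries and 637 to 1025 with a library left out.

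Estimates near 0 changed sign. Ncoa3 over all libraries was -0.0032 with RLE, -0.00046 with DESeq2, -0.017 with sets summed and -0.083 to 0.065 with a library left out. With total-count scaling Ncoa3 was 0.036 within batch 2, and Nr3c1 and Ncoa3 were 0.090 and 0.061 between Control batches. The difference of Nrip1 between batches was -0.042 with total counts and -0.037 with no filter. Nr4a2 in the permutation test was 0.10 with a prior count of 0.5. Left-out libraries gave Nr4a2 -0.45 to 0.0036 over all libraries and -0.064 to 0.80 within batch 2, Nr4a3 -0.33 to 0.75 within batch 2, Ncoa3 -0.076 to 0.23 within batch 1 and -0.20 to 0.052 within batch 2, and, for the difference between batches, Nrip1 -0.15 to 0.30 and Ncoa3 -0.29 to 0.018. Between Control batches they gave Nr3c1 -0.37 to 0.085 and Ncoa3 -0.20 to 0.022. The cause of these changes was not tested. Counts of 3 to 51 for Ncoa1 and 0 to 112 for Nr4a2 in Control libraries limit what could be detected.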
